A study of Mus musculus with 4 samples.

Results

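The genes of glucose breakdown and of fatty acid oxidation were examined in cardiac progenitor cells with and without the LIM-homeodomain factor Isl1. The set was a fixed list of 46 gene symbols, and all 46 were found among the 20701 symbols of the deposited transcript table. It held 5 glucose and lactate transporters, 9 enzymes of upper and 7 of lower glycolysis, 2 lactate dehydrogenases, 4 pyruvate dehydrogenase kinases, 2 genes of fatty acid uptake and activation, 3 of the carnitine shuttle, 8 of mitochondrial beta-oxidation, and 6 nuclear receptors and coactivators. Where a symbol had several transcript entries, which was so for 17 members, the one with most counts over all libraries was kept.

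Poly(A) RNA-Seq was performed on 4 libraries, 2 from control and 2 from Isl1_KO clones. All clones were E14 mouse embryonic stem cells that carried the Tg(Nkx2-5-EmGFP) reporter, were differentiated without a further treatment named in the labels, and were sorted for GFP at day 5. Isl1_KO clones were Isl1-/- lines made by CRISPR/Cas9 editing with a pair of guide RNAs, and the control clones kept Isl1. Each library came from a different clone. The spread within a group therefore holds differences between clones, from which those of culture, sorting and library preparation cannot be told apart. The deposited design text names a knockdown construct where the sample labels name a knockout; the labels were followed here.

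Glucose enters the cell through the Slc2a transporters, is split to pyruvate by the glycolytic enzymes, and leaves as lactate through the Slc16a carriers when lactate dehydrogenase reduces the pyruvate. Pyruvate dehydrogenase kinases hold back the use of pyruvate by pyruvate dehydrogenase in the mitochondrion. Fatty acids are activated to acyl-CoA, carried into the mitochondrion by the carnitine palmitoyltransferases and shortened by beta-oxidation. Embryonic heart cells rely largely on glycolysis, and the oxidative programme, driven by the PPAR and estrogen-related receptors with their PGC-1 coactivators, expands as cardiomyocytes mature.

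Read counts summed over 1 entry per symbol ranged from 8821536 to 13186103 per library, and the members took 0.738% to 0.886% of them. Isl1 itself was counted 309 and 326 times in control and 17 and 24 times after the knockout, a log2 fold change of −4.39 with an SE of 0.21 (edgeR quasi-likelihood test, adjusted p = 0.00276). Of 10 cardiac progenitor markers, 6 fell and none rose, among them Nkx2-5, the gene behind the sort, at −2.16. Of 15 sarcomere markers, 13 fell, and their summed level went from 4665 and 4757 CPM (counts scaled to the size of the library) in control to 3098 and 2088 in Isl1_KO, most of it Tpm1, which did not pass, with Myl2 at 0 counts in Isl1_KO replicate 2. Among 10 blood markers Runx1 was the one that passed in edgeR, higher in Isl1_KO, as did Runx1 and Tal1 in DESeq2, and no endothelium, pluripotency or endoderm marker passed in edgeR, while Tek and Apob fell in DESeq2. Summed CPM went from 526 and 537 to 409 and 293 for blood, where 6 of the 9 tested markers lay above 0 with a median log2 fold change of 0.57 and Hbb-bh1, Hba-x and Hba-a1 lay below, from 220 and 223 to 206 and 142 for 8 endothelium markers, from 98.5 and 100.1 to 47.3 and 87.0 for 8 pluripotency markers, and from 71.7 and 69.0 to 59.4 and 32.4 for 8 endoderm markers, with the endothelial Emcn at 0 in both Isl1_KO libraries. In bulk RNA, fewer cells of a type and less RNA per cell cannot be told apart.

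Of the 46 members, 44 had enough counts to be tested, and 3 passed an adjusted p of 0.05, all lower in Isl1_KO: Acsl1, Esrrg and Ppargc1a. Across the 12715 genes tested, 2.45% passed, 1.94% lower and 0.511% higher. Acsl1 was 1 of 12 tested members of fatty acid uptake, shuttle and oxidation, and Esrrg and Ppargc1a were 2 of 5 tested regulators. No transporter, glycolytic enzyme, lactate dehydrogenase, pyruvate dehydrogenase kinase, carnitine palmitoyltransferase or beta-oxidation enzyme passed. DESeq2 (Wald test, adjusted p) passed these 3 and Pgam2 as lower and Ldha as higher, beside 3.34% lower and 1.33% higher among all genes with an adjusted p. By the criteria of the study, a DESeq2 log2 fold change beyond 0.58 with an unadjusted p under 0.05, Acsl1, Esrrg, Ppargc1a and Pgam2 were lower and Ppargc1b higher, against 4.57% lower and 1.32% higher of all genes. Fits without control replicate 1 or control replicate 2 took their spread from the Isl1_KO pair alone, so no call was drawn from them. In these, edgeR gave log2 fold changes of −1.22 and −1.16 for Acsl1 and −4.84 and −4.44 for Esrrg. Without Isl1_KO replicate 1 or 2 it passed 22 and 21 members, where 49.4% and 32.7% of all genes tested passed, the spread then coming from the control pair alone.

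**Figure D1:**
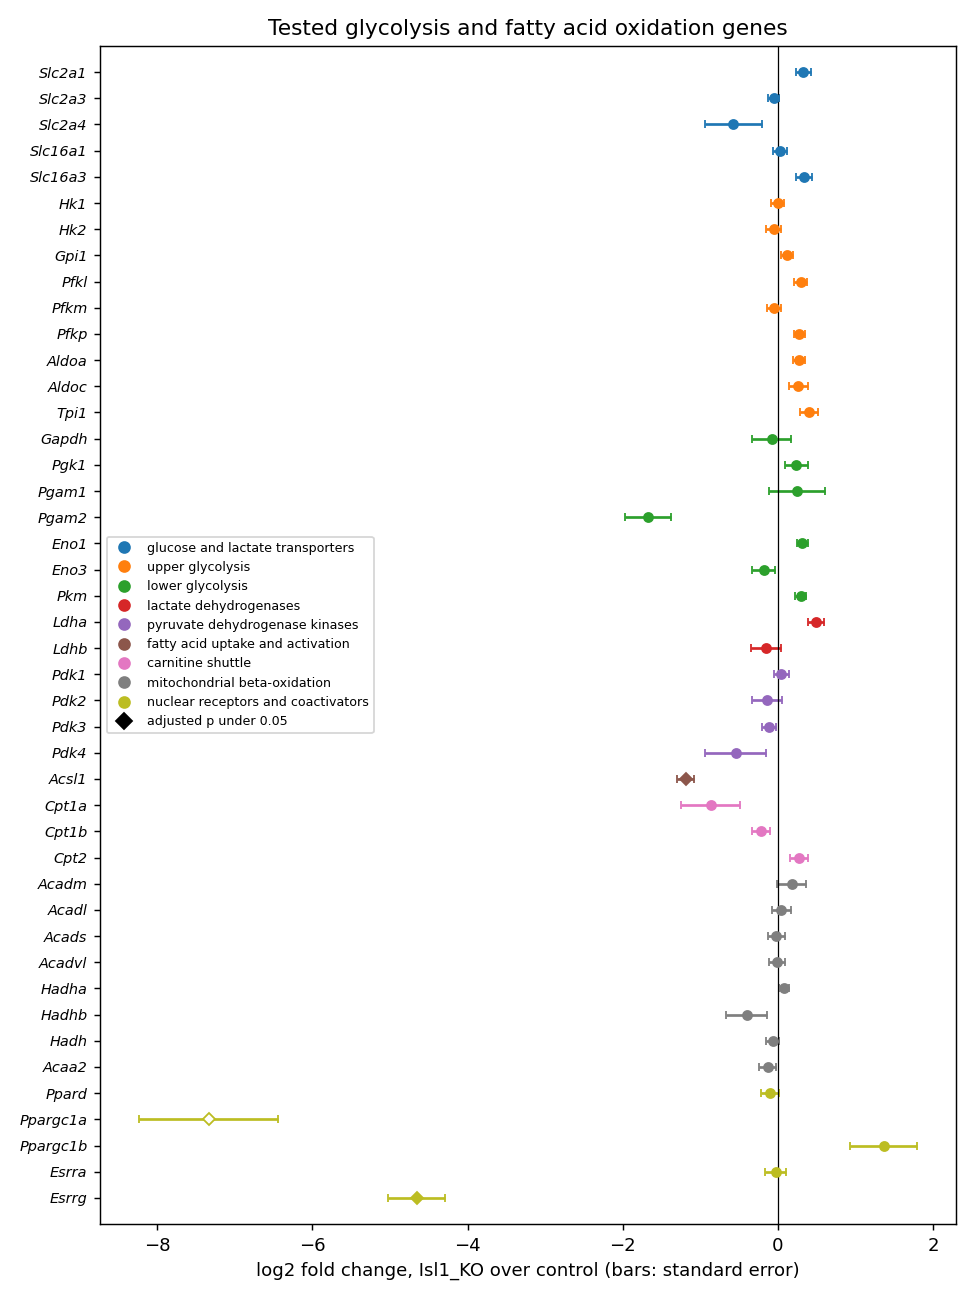
Log2 fold change (Isl1_KO over control, x axis) with its standard error for the 44 tested members, colored by role. Diamonds mark the 3 members with an adjusted p under 0.05; the open diamond, Ppargc1a, had 0 counts in both Isl1_KO libraries, so its fitted value is no estimate of size. Most other members lie close to 0.

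The regulators held the widest changes of the set. Esrrg, the estrogen-related receptor gamma (chr1:189432670-190038764 in NCBIM37, plus strand), was counted 49 and 67 times in control and 3 times in each Isl1_KO library. In CPM these were 5.56 and 7.33 against 0.231 and 0.260, so the groups lay far apart. The fit gave a log2 fold change of −4.66 with an SE of 0.37 (edgeR, adjusted p = 0.00901). From the summed counts, 116 against 6, the level was 26.4-fold lower, with an exact 95% counting interval of 11.8 to 73.5. Esrra, its close relative (overlapped on the opposite strand by Trmt112), stood at 12.1 and 12.9 CPM in control and 12.1 and 12.5 in Isl1_KO, with a log2 fold change of −0.03 ± 0.14 (the SE, as for every fold change below).

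Ppargc1a, which encodes the coactivator PGC-1 alpha (chr5:51845488-51958964, minus strand), was counted 14 and 20 times in control and not at all in either Isl1_KO library. Both of its control libraries lay above both Isl1_KO libraries, yet all its counts were low. Set against a floor of 3 counts in each Isl1_KO library, its mean of 1.89 ± 0.42 CPM (SD, n = 2) in control was at least 7.70-fold higher (edgeR, adjusted p = 0.0453). The adjusted p became 0.0898 when the change was tested against 1.5-fold. Ppargc1b, the related coactivator PGC-1 beta, was counted 14 and 15 times against 37 and 64 times. Its level went from 1.62 ± 0.04 to 4.20 ± 1.92 CPM (SD, n = 2), a log2 fold change of 1.36 ± 0.43 that did not pass (adjusted p = 0.156).

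Of the receptors that bind fatty acids, Ppard was at 24.3 and 23.2 CPM in control and 23.1 and 21.1 in Isl1_KO, a log2 fold change of −0.10 ± 0.11. Ppara had 2 and 6 counts against 8 and 3 and could not be tested. The median log2 fold change of the 5 tested regulators was −0.10, also with Ppargc1a set at its bound, beside −0.0025 for all tested genes. It was −0.17 without Isl1_KO replicate 1 and −0.05 without Isl1_KO replicate 2. Without control replicate 2 the median was −0.06, but Ppargc1a had too few counts to be tested there, so the genes differ. The 2 receptors or coactivators that fell each have a relative in the set that did not pass the test.

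**Figure D2:**
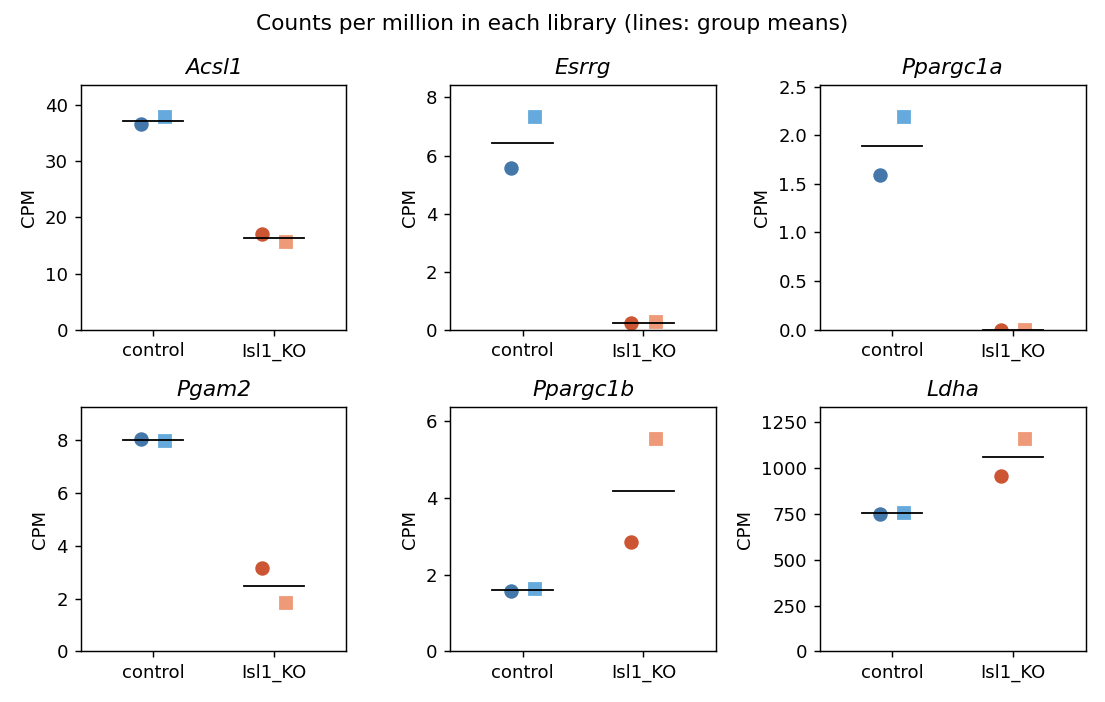
CPM (y axis) in each library for the 3 members that fell (Acsl1, Esrrg, Ppargc1a) and for Pgam2, Ppargc1b and Ldha, which did not pass; each panel starts at 0, circles are replicate 1, squares replicate 2, and lines are group means. The control pair lies close together in most panels, and Ppargc1b and Ldha are spread more widely in Isl1_KO.

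Acsl1, the long-chain acyl-CoA synthetase that activates fatty acids (chr8:47556395-47621405, plus strand), was the only enzyme that passed in edgeR. It had 36.6 and 37.9 CPM in control against 17.0 and 15.6 in Isl1_KO, with little spread in either group. The means were 37.2 ± 0.93 and 16.3 ± 0.97 CPM (SD, n = 2), a log2 fold change of −1.19 with an SE of 0.11 (edgeR, adjusted p = 0.0141), or 2.28-fold lower. Both of its transcript entries gave nearly the same counts, 322 and 346 in control for one and 322 and 345 for the other. Reads in shared exons count for both entries, so this is no separate evidence. Tested against a change of 1.5-fold, its adjusted p was 0.0554. The sarcomere markers moved in the same direction across the same libraries; their part in the levels of Acsl1, Esrrg and Ppargc1a was not tested.

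The promoters of these 3 genes are shown because they are the members that fell. Below are, for each gene, the 250 bases before a RefSeq start in GRCm38.p6, chosen among 7 listed starts as one that holds a searched motif in full within these bases; which start these cells used cannot be read from the counts. Capitals mark motifs on either strand, and each distance runs from the first base of the capitals to the start: in Ppargc1a (chr5:51567726-51567975, minus strand) ACGTG, the core of a hypoxia response element, 51 bases before the start and CACCTG, an E-box, at 217 and 63; in Esrrg (chr1:187608756-187609005, plus strand) a MEF2-type site, CTA and TAG separated by any 4 bases, at 22; and in Acsl1 (chr8:46490716-46490965, plus strand) CACCTG at 238.
Ppargc1a: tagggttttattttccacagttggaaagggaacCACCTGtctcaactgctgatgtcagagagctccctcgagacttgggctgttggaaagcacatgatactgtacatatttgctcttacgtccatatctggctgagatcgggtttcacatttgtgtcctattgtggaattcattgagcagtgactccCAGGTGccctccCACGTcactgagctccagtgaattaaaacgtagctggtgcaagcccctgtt
Esrrg: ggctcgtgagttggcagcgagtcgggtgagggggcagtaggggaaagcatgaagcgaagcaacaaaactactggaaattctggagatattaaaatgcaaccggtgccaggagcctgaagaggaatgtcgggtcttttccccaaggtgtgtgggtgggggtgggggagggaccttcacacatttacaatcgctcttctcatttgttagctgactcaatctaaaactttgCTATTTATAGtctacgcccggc
Acsl1: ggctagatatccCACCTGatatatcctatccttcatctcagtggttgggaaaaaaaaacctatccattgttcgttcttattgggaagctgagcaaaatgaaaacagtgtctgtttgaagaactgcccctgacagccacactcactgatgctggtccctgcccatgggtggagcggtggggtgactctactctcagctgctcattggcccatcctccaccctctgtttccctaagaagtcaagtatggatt

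None of the 7 starts held AAGGTCA, the core site of the estrogen-related receptors, or the GATA motif AGATAA within 250 bases before and 50 after the start. One held the MEF2-type site, 2 held ACGTG and 2 held CACCTG. Over all 32851 promoters in the table the shares were 4.72% for AAGGTCA, 11.2% for AGATAA, 3.69% for the MEF2-type site, 19.6% for ACGTG and 20.2% for CACCTG. Promoters were listed for 41 of the 46 members, and ACGTG was present in 15 of 32 promoters of the transporter and glycolysis members and in 6 of 26 of the others. The 13 genes with it on the glycolysis side were Aldoa, Aldoc, Gapdh, Hk1, Hk2, Ldha, Pfkm, Pgam1, Pgk1, Pkm, Slc16a1, Slc16a3 and Slc2a1. A match of letters is a description and shows no binding.

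Transporters and glycolytic enzymes were mostly near their control level or slightly above it. Of these 23 members, which all had enough counts, 0 passed edgeR in either direction, while 10 had an unadjusted p under 0.05, 9 higher and 1 lower, beside 23.2% of all tested genes, 11.0% higher and 12.2% lower. Both Isl1_KO libraries lay above both control libraries for 12 members, and below them for 3, where 29.2% and 29.0% of all tested genes did so. The median log2 fold change was 0.24, and 0.11 over the 19 members without a copy of at least 99% identity elsewhere in the genome. It was 0.13 without Isl1_KO replicate 1. DESeq2 passed 2 of the 23, Ldha as higher and Pgam2 as lower, beside 1.33% higher and 3.34% lower among all genes with an adjusted p.

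Among the transporters, Slc2a1, the main glucose carrier of embryonic cells, had 1411 and 1396 CPM in control and 1896 and 1620 in Isl1_KO. Both Isl1_KO libraries were higher, by 0.33 on the log2 scale with an SE of 0.10 (edgeR, adjusted p = 0.140). Slc16a3, which exports lactate and overlaps Csnk1d on the other strand, had 206 and 192 CPM against 230 and 273, a log2 fold change of 0.34 ± 0.10 (adjusted p = 0.147). Slc2a3, the high-affinity carrier, differed little at 1158 and 1161 against 1136 and 1094 CPM. Slc16a1, the other lactate carrier, overlapped between groups with 349 and 340 against 324 and 375 CPM. Slc2a4, the insulin-responsive carrier of muscle and fat, had 6.58 and 5.80 against 5.53 and 2.69 CPM, and its log2 fold change of −0.58 ± 0.37, the largest of the transporters, did not pass (adjusted p = 0.401).

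In upper glycolysis, the phosphofructokinases Pfkl and Pfkp, the aldolase Aldoa and the triosephosphate isomerase Tpi1 were each higher in both Isl1_KO libraries. Pfkl had 330 and 325 CPM in control and 379 and 424 in Isl1_KO (log2 fold change 0.29 ± 0.08, adjusted p = 0.124). Pfkp, which overlaps Pitrm1 on the other strand, had 125 and 134 against 160 and 152 CPM (0.28 ± 0.07, adjusted p = 0.118). Aldoa, which splits the hexose to trioses, had 717 and 715 against 827 and 900 CPM (0.27 ± 0.07, adjusted p = 0.125). Tpi1, overlapped by Spsb2, had 355 and 346 against 415 and 511 CPM, the largest difference of the 9 genes (0.40 ± 0.11, adjusted p = 0.131).

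Both Isl1_KO libraries lay above both control libraries for 6 of the 9 genes of upper glycolysis, beside 29.2% of all tested genes. The other 3 overlapped. The hexokinases Hk1, at 50.7 and 51.8 against 52.7 and 49.6 CPM, and Hk2, at 198 and 197 against 175 and 205 CPM, overlapped between groups, as did the muscle phosphofructokinase Pfkm. The isomerase Gpi1 and the minor aldolase Aldoc lay higher in both Isl1_KO libraries by 0.11 ± 0.08 and 0.26 ± 0.12 on the log2 scale, with adjusted p-values of 0.413 and 0.277.

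**Figure D3:**
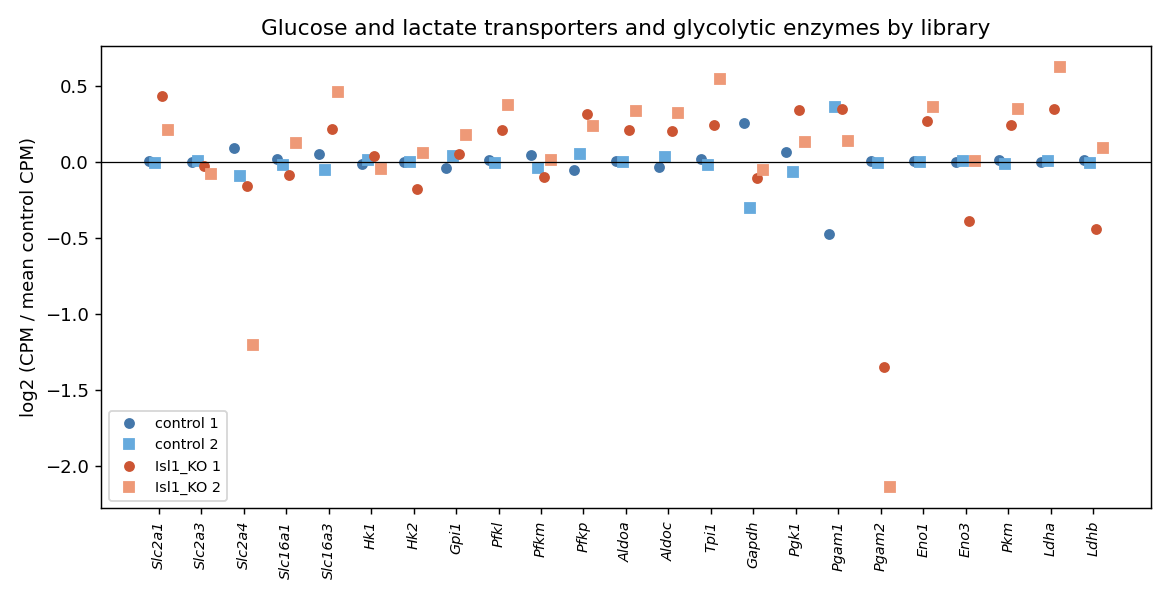
Log2 ratio of each library's CPM to the mean control CPM (y axis) for the 23 transporters, glycolytic enzymes and lactate dehydrogenases, in pathway order along the x axis. Isl1_KO libraries lie above 0 at Slc2a1, Slc16a3, Pfkl, Pfkp, Aldoa, Tpi1, Eno1, Pkm and Ldha and far below it at Pgam2, and Isl1_KO replicate 1 stands low at Eno3 and Ldhb.

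In lower glycolysis, Pgam2, the muscle form of phosphoglycerate mutase, had the largest difference of all glycolytic genes. Its reads numbered 71 and 73 in control and 41 and 21 in Isl1_KO, that is 8.06 and 7.99 against 3.15 and 1.82 CPM. Counts were low in all 4 libraries, yet the groups did not overlap. Its log2 fold change of −1.67 ± 0.30 did not pass in edgeR (adjusted p = 0.0633) and passed in DESeq2 (adjusted p = 0.0116). Eno1 and Pkm, the common forms of enolase and pyruvate kinase, lay the other way. Eno1 had 59.8 and 59.4 against 71.9 and 76.5 CPM (log2 fold change 0.32 ± 0.08, edgeR adjusted p = 0.102), and Pkm 671 and 658 against 787 and 845 CPM (0.30 ± 0.07, adjusted p = 0.102). Eno3, the muscle enolase, had 42.3 and 42.6 CPM in control and 32.4 and 42.5 in Isl1_KO, so only replicate 1 was lower.

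Ldha, the lactate dehydrogenase subunit that favors lactate, had 751 and 756 CPM in control and 958 and 1161 in Isl1_KO. The Isl1_KO clones differed from each other more than the controls did, yet both were higher. The means were 754 ± 3.51 and 1059 ± 143 CPM (SD, n = 2), a log2 fold change of 0.49 ± 0.11 that missed the threshold in edgeR (adjusted p = 0.0876) and passed it in DESeq2 (adjusted p = 0.00927). Ldhb, the heart-type subunit, had 24.2 and 23.9 CPM in control and 17.7 and 25.5 in Isl1_KO, with a log2 fold change of −0.16 ± 0.20.

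Gapdh, Pgk1 and Pgam1, which act between triose phosphate and phosphoglycerate, had few reads. Gapdh was counted 54 and 38 times in control and 62 and 57 times in Isl1_KO, Pgk1 145 and 137 against 259 and 198, and Pgam1 13 and 24 against 34 and 26. Their log2 fold changes were −0.08 ± 0.26, 0.24 ± 0.14 and 0.24 ± 0.36, and none passed. Per length, in the deposited reads per kilobase scaled to depth (RPKM), their control means were 2.06, 4.89 and 0.635. Among other enzymes of the pathway, Aldoa, Tpi1, Pkm and Ldha had 256, 124, 155 and 235. The enolases Eno1 and Eno3 lay between, at 19.1 and 15.2.

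Gapdh, Pgk1 and Pgam1 each have near-identical copies elsewhere in the genome. The longest coding transcript of each member was aligned to NCBIM37, and placements outside the gene that covered at least 50% of it at 90% identity or more were counted. Gapdh had 196 such placements, the closest 99.8% identical, Pgk1 had 2 (99.9%) and Pgam1 had 3 (99.9%). Eno1 (7, closest 99.6%) and Hadhb (2, closest 99.6%) also had a copy of at least 99% identity, and the control RPKM of these 5 genes ranged from 0.635 to 19.1. The 7 members whose closest copy was 90% to 99% identical, Acadm, Aldoa, Gpi1, Ldha, Ldhb, Pkm and Tpi1, ranged from 8.68 to 256 RPKM. The other 34 members had no such copy and ranged from 0.035 to 309 RPKM with a median of 7.04, so low levels also occurred without one. How reads that fit several places were treated is not given in the sources used here, so the levels of the 5 genes are uncertain, and the part of the copies in them was not tested.

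**Figure D4:**
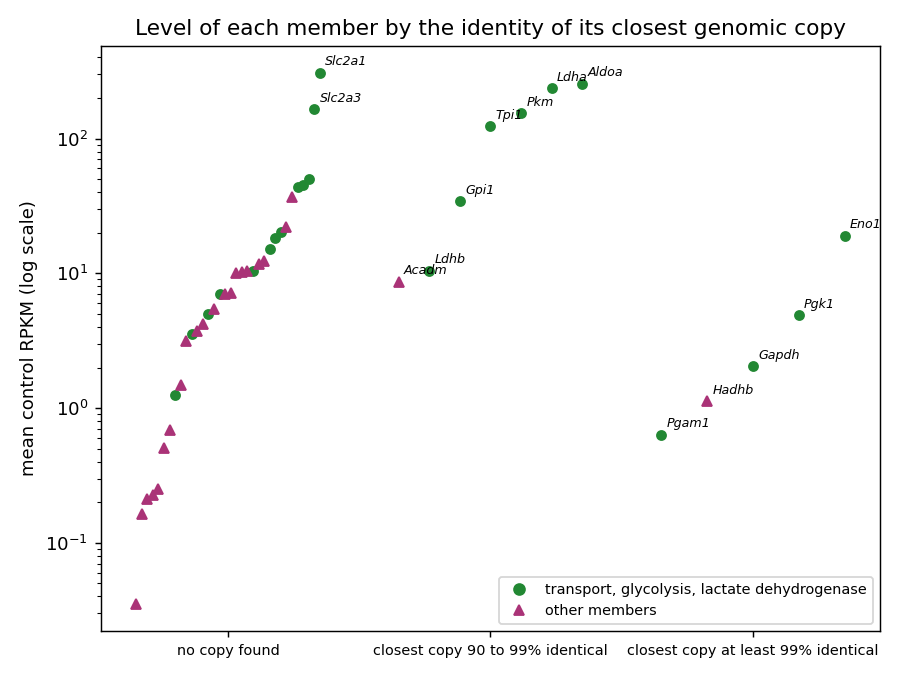
Mean control RPKM of each member (log scale, y axis), grouped by the identity of its closest copy elsewhere in the genome; points are spread sideways within a group. The 5 members with a copy of at least 99% identity lie at or below 19.1 RPKM, and Aldoa, Ldha, Pkm and Tpi1, whose copies are less alike, at or above 124 RPKM.

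The pyruvate dehydrogenase kinases showed no difference that passed. Pdk1, a kinase induced by hypoxia, had 98.9 and 90.4 in control and 90.7 and 104 in Isl1_KO. Pdk3 had 42.9 and 44.8 against 41.4 and 39.5 CPM, and Pdk2 6.02 and 5.80 against 5.07 and 5.64, both slightly lower. Pdk4, the kinase induced by fatty acids and fasting, had 31 and 24 counts against 19 and 32, and its log2 fold change of −0.55 ± 0.40 was the largest of the 4 (edgeR, adjusted p = 0.455). The median of the 4 was −0.13.

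On the fatty acid side, no enzyme apart from Acsl1 passed. Cd36, the fatty acid receptor and carrier, was counted 6 and 18 times against 1 and 9 times and could not be tested. Cpt1a, the liver form of the outer carnitine palmitoyltransferase, had 12 and 19 counts against 11 and 12, with a log2 fold change of −0.87 ± 0.38 that did not pass (edgeR, adjusted p = 0.253). Cpt1b, the muscle form, whose exons overlap those of Chkb on the same strand, had 19.3 and 18.8 CPM against 16.8 and 16.1 (−0.22 ± 0.12, adjusted p = 0.336). Cpt2, the inner enzyme, had 27.6 and 30.5 against 33.1 and 37.1 CPM (0.27 ± 0.12, adjusted p = 0.241). In CPM the carnitine enzymes thus separated by group, 2 lower and 1 higher, and none passed. Of all tested genes, 58.1% also separated in either direction. For Cpt1a the separation rested on scaling to depth, since its raw counts were not separated.

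For beta-oxidation, 0 of 8 genes passed in edgeR or DESeq2, and 0 had an unadjusted edgeR p under 0.05, beside 23.2% of all tested genes. Hadha, the alpha subunit of the trifunctional protein, overlapped by Fam59b, had 149 and 148 CPM in control and 159 and 154 in Isl1_KO. Hadh, the short-chain hydroxyacyl-CoA dehydrogenase, had 112 and 121 against 106 and 116 CPM. The acyl-CoA dehydrogenases Acadm, Acadl, Acads and Acadvl, the last overlapped by Dvl2, ranged from 26.2 to 42.1 CPM over all libraries and overlapped between groups. Acaa2, the thiolase of the last step, had 27.8 and 25.7 against 23.9 and 24.99 CPM. Hadhb, the beta subunit, was counted 37 times in each control library and 47 and 30 times in Isl1_KO, and with a log2 fold change of −0.40 ± 0.26 it differed most of the 8 (adjusted p = 0.414). The 12 tested members of uptake, shuttle and oxidation had a median of −0.04. The median was −0.10 without Isl1_KO replicate 1 and −0.13 without Isl1_KO replicate 2. Each of these fits tested 45 members of the whole set in place of 44, so these medians need not be over the same genes.

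Ratios between paralogues were taken within each library from RPKM, so that 2 forms of an enzyme were compared per length. Of 16 pairs, Ppargc1b/Ppargc1a had no ratio because Ppargc1a was at 0. Of the other 15, the groups did not overlap for 10, the first-named gene being relatively lower in Isl1_KO in 8 and higher in 2. For the levels of single genes, the groups did not overlap for 58.1% of all tested genes. With 2 libraries a group an exact permutation test cannot go below p = 0.333, so none could pass. The largest change was Esrrg/Esrra, from 0.192 and 0.239 in control to 0.0066 and 0.0092 in Isl1_KO. These Isl1_KO ratios rest on 3 Esrrg counts in each library and on RPKM deposited as 0.02 and 0.03. The gap between the Isl1_KO ratios is therefore not resolved. Pgam2/Pgam1 went from 10.96 and 6.17 to 2.46 and 1.64, although Pgam1 is one of the genes with a near-identical copy. Pfkm/Pfkl was at 0.213 and 0.204 against 0.168 and 0.162, Ldhb/Ldha at 0.0449 and 0.0440 against 0.0258 and 0.0307, and Eno3/Eno1 at 0.790 and 0.800 against 0.504 and 0.620, although the levels of Pfkm, Ldhb and Eno3 overlapped between groups and Eno1 has a near-identical copy. Cpt1b/Cpt1a, also a muscle form over a common one, lay the other way, at 21.1 and 13.7 against 29.8 and 23.4. Slc2a3/Slc2a1, Slc2a4/Slc2a1 and Pdk4/Pdk1 were lower as well, and Slc16a3/Slc16a1 higher. Counts were low for Slc2a4, 58 and 53 against 72 and 31, and for Pdk4, 31 and 24 against 19 and 32. Hk1/Hk2, Pfkp/Pfkl, Aldoc/Aldoa, Acadl/Acadm and Ppara/Ppard overlapped.

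**Figure D5:**
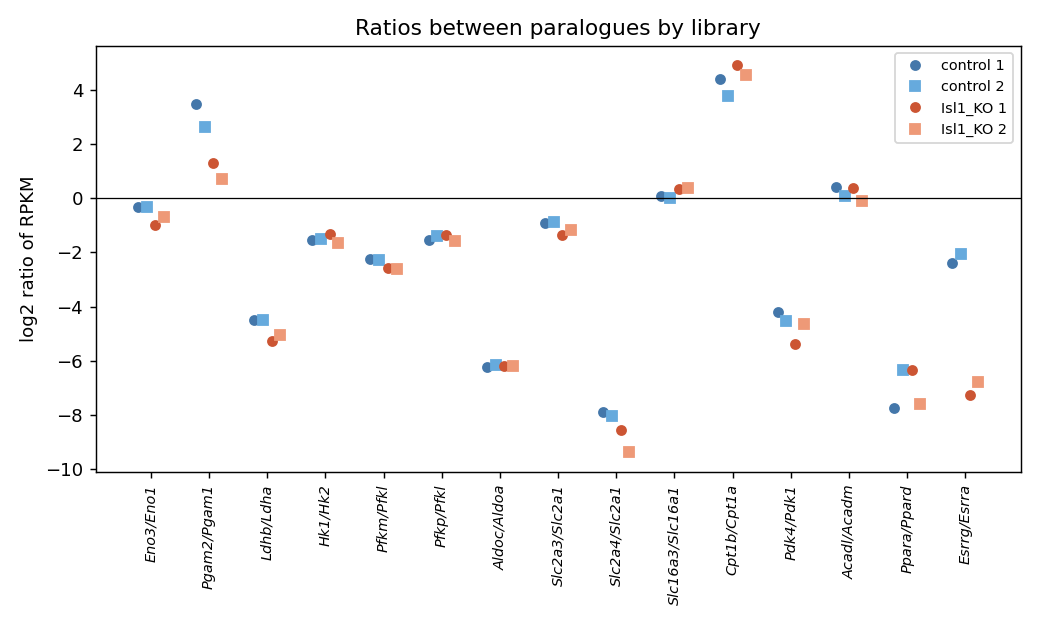
Log2 ratio of the RPKM of 2 paralogues (y axis) in each library for 15 pairs; circles are replicate 1, squares replicate 2, blue control and orange Isl1_KO. Esrrg/Esrra and Pgam2/Pgam1 lie lower in both Isl1_KO libraries, and Hk1/Hk2 and Aldoc/Aldoa overlap.

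A wider list of 122 other genes of the same pathways was counted in the same fit. Of the 104 tested, 0 passed in edgeR and 9 had an unadjusted p under 0.05, beside 23.2% of all tested genes. DESeq2 passed 1, Myc, as higher, beside 1.33% higher and 3.34% lower among all genes with an adjusted p. None passed in edgeR among 20 other glycolysis genes, 11 genes of pyruvate entry, 37 other genes of fatty acid oxidation, 16 other regulators and 20 genes inducible by hypoxia. Their median log2 fold changes were −0.01, −0.0052, −0.09, 0.06 and 0.07. Myc, a transcription factor that drives glycolytic genes, had 64.5 and 61.2 CPM in control and 94.5 and 131 in Isl1_KO, a log2 fold change of 0.84 ± 0.17 (edgeR, adjusted p = 0.0753; DESeq2, adjusted p = 8.0e-04). Acacb, which makes the malonyl-CoA that inhibits carnitine palmitoyltransferase, had 8.06 and 8.10 against 4.84 and 5.03 CPM, a log2 fold change of −0.71 ± 0.18 (edgeR, adjusted p = 0.109).

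Hif1a, the hypoxia-inducible factor that acts on many glycolytic promoters, had 432 and 441 CPM in control and 577 and 516 in Isl1_KO (log2 fold change 0.33 ± 0.08, edgeR adjusted p = 0.107). It was named after its values were seen. It lies at chr12:75002362-75048517 in NCBIM37, in a stretch that was higher in Isl1_KO as a whole. The 62 tested genes within 5 Mb on either side had a median log2 fold change of 0.43, and 50 of them lay above 0. None of the 46 members lies on chromosome 12. Whether any member lies in such a stretch on another chromosome was not tested.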

How the data were processed

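The 46 members and all gene lists were chosen with earlier results of these data known. Per the study's methods, the authors aligned reads with STAR to mm9, and the deposited counts are whole reads in the exons of each RefSeq transcript, taken from both strands with HOMER. Reads from overlapping genes on opposite strands therefore cannot be told apart. RPKM as deposited came from edgeR, run by the authors. Tool versions and the treatment of reads with several placements are not given in the sources used here. The deposited log2 fold changes and their errors, the Wald score, the p-value columns and the mean normalised signal hold the authors' own DESeq2 comparison and were not used.

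One entry per symbol was kept, the one with the highest summed count and, in ties, the longest. Counts were tested with edgeR 4.0.16 in R 4.3.3 (TMM factors, filterByExpr, quasi-likelihood F test, two-sided), with Benjamini-Hochberg adjustment over all 12715 tested genes and a threshold of 0.05. The script was tested on simulated data. The SE was derived from that test, as the absolute log2 fold change over the square root of the F statistic. CPM used TMM-scaled library sizes. DESeq2 1.42.0 and the settings listed at the end were alternatives. Coding transcripts of GENCODE vM1 were aligned to NCBIM37 with minimap2, and promoters came from RefSeq (GRCm38.p6). Full statistics were given for members that passed, for the member of each role with the largest absolute log2 fold change, and for members whose groups did not overlap with an unadjusted p under 0.05; from the wider list, the 2 genes with the largest change at a mean log2 CPM of at least 2. SE and adjusted p rest on the spread between 2 libraries a group, each from its own clone. The edgeR fit also shares information on spread across genes. Counting intervals cover counting error only.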

Additional observations from a re-analysis of the deposited data

How the results depend on the processing

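The count of 3 members was 1 with at least 10 counts in every library, which removed Esrrg and Ppargc1a, and 1 when tested against 1.5-fold, 5 with the DESeq2 Wald test and 5 by the criteria of the study. It ranged from 0 to 22 when 1 library was left out, and the count over all genes from 28 to 6355. The wider list, with 0 calls, gave 1 without a filter, with DESeq2, by the criteria of the study and with either replicate block, and 0 to 43 with 1 library left out. With 1 library left out, the glycolysis median ranged from 0.13 to 0.22, the fatty acid oxidation median from −0.130 to −0.074, and the regulator median from −0.17 to −0.05. The members tested in these fits numbered 43 to 45, so not all of these medians are over the same genes. The fatty acid oxidation median was −0.086 with the replicate block and a length offset. Where 1 library was left out, the lone one of its group is assumed to vary like the other group. The Isl1 result passed in all settings, and no named gene reversed its direction. Among named genes, apart from the fits with 1 library left out, 2 calls were lost (Acsl1 and Ppargc1a against 1.5-fold) and 9 gained (Pgam2 and Myc without a filter, with DESeq2 and with either block, and Ldha with DESeq2).

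Same-numbered libraries did not deviate together (correlation of deviations 0.01 across 12715 genes), which gave no sign of pairing. With 2 libraries a group, this cannot decide whether the clones were handled in pairs. With the replicate block, 428 genes passed in place of 312, and 4 members in place of 3, Pgam2 being added. All genes called numbered 492 without a filter, 604 with DESeq2 and 92 against 1.5-fold. Depth limits, among others, Ppargc1a, Esrrg, Cd36, Ppara, Cpt1a, Pgam1 and Pdk4, whose counts were under 70 in every library.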
